A study of Mus musculus with 34 samples.

Results

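The acute phase protein genes described here are the 10 serum amyloid, orosomucoid, haptoglobin, hemopexin and amyloid P genes found by symbol among the 51368 genes quantified in mouse RNA-seq libraries. They are Saa1, Saa2, Saa3 and Saa4, Orm1, Orm2 and Orm3, Hp, Hpx and Apcs. The series asked what the removal of ribosomal RNA (rRNA), the speed of temperature change in the PCR (the ramp) and the fragment length do to RNA-seq. It holds 34 libraries from the liver and heart of 1 wild-type C57BL/6J mouse aged 12 weeks, with no genetic change and no treatment named. The labels disagree on the sex of that animal. PolyA selection (9 liver libraries, batch 1) captures RNA by its poly(A) tail, rRNA pull-down (9, batch 2) removes rRNA bound to probes, and rRNA digestion (9, batch 2) degrades it with an enzyme. Each method was prepared once at every combination of slow, medium and fast ramp with short, medium and long fragments, from 200 ng of RNA. Unselected libraries kept their rRNA and were made from 20 ng with a slow ramp and medium fragments: 3 from liver in batch 1, 3 from liver in batch 2 and 1 from heart in batch 1. Each method had its own kit, and its input differed from that of the unselected libraries. Method, kit, input and, for polyA selection against the rRNA methods, batch cannot be told apart. All libraries came from 1 animal, so every p-value measures the spread between preparations and not between animals.

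Acute phase proteins are plasma proteins whose production by hepatocytes changes in infection and injury, when interleukin-6 and interleukin-1 act through STAT3, C/EBP factors and NF-kB. Serum amyloid A proteins travel with high-density lipoprotein, orosomucoids carry small lipophilic molecules, haptoglobin binds free haemoglobin, hemopexin binds heme, and serum amyloid P (Apcs) is a pentraxin that binds bacteria and amyloid. In a healthy liver some of them, such as Hp and Hpx, are made constantly, while Saa1 and Saa2 are kept low and are known for their steep induction.

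The serum amyloid genes lie together on chromosome 7 of GRCm38 within 42.3 kb, and the orosomucoid genes on chromosome 4 within 21.3 kb. In the GENCODE M21 annotation Saa3 (ENSMUSG00000040026) occupies chr7:46711998-46715700, Saa4 (ENSMUSG00000040017) chr7:46727998-46732603 and Saa1 (ENSMUSG00000074115) chr7:46740497-46742980, all on the minus strand, and Saa2 (ENSMUSG00000057465) chr7:46751790-46754313 on the plus strand. Orm1 (ENSMUSG00000039196) occupies chr4:63344560-63348163, Orm3 (ENSMUSG00000028359) chr4:63356162-63359511 and Orm2 (ENSMUSG00000061540) chr4:63362449-63365878, all on the plus strand. Hp (ENSMUSG00000031722) lies at chr8:109575128-109579172, Hpx (ENSMUSG00000030895) at chr7:105591613-105600137 and Apcs (ENSMUSG00000026542) at chr1:172893961-172895041, all on the minus strand. All 10 are annotated as protein-coding.

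Saa1 and Saa2 are close copies, and part of their reads fits both. Their coding sequences of 366 bases were 95.1% identical and differed at 18 positions. Their first 300 bases, from the GENCODE M21 transcripts, hold 17 of those positions and are shown 5′ to 3′, with capitals where the copies differ.
Saa1: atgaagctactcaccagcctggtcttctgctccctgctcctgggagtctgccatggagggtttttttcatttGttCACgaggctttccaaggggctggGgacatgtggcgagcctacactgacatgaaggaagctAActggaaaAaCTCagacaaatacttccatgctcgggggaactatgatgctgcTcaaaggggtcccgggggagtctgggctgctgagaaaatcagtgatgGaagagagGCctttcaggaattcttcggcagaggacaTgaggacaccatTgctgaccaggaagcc
Saa2: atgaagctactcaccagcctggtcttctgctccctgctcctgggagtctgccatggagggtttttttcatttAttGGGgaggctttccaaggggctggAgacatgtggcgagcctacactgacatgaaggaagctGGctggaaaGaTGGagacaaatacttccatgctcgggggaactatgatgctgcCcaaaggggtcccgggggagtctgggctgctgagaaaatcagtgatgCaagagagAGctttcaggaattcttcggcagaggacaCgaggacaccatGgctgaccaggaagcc
Orm1 and Orm2 were 89.9% identical over 621 coding bases, with 63 differing positions. Their first 240 coding bases are shown in the same way, because they hold 33 of those differences.
Orm1: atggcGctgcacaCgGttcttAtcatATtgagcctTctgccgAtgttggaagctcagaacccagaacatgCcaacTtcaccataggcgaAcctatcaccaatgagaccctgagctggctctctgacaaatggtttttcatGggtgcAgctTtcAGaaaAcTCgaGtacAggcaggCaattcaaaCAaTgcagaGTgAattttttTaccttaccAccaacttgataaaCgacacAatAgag
Orm2: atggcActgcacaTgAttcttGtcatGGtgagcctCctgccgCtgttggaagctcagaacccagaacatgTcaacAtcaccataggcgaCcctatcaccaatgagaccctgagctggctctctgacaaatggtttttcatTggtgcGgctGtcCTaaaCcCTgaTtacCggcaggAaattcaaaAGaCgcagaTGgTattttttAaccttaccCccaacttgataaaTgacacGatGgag
Saa3 and Saa4 were farther from Saa1, at 75.9% and 65.0% identity. Of the 31-base stretches in the main coding transcript, 30.1% in Saa1, 27.3% in Saa2, 27.5% in Orm1 and 34.1% in Orm2 also occurred in another gene. That share was 9.4% for Orm3, 5.7% for Saa3, 3.4% for Saa4, 0.3% for Hp and 0% for Hpx and Apcs. Single-copy values of Saa1, Saa2, Orm1, Orm2 and Orm3 are therefore uncertain to the extent that the quantification divided shared reads.

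Promoter sequences matched 8 of the 10 genes in RefSeq (GRCm38.p6), and Orm1 and Hp had no entry. The RefSeq start of Hpx lies inside the gene as placed by GENCODE M21, so the end of its promoter overlaps that gene. A C/EBP core motif written TTGCNNAA was searched on both strands in the 250 bases before each start, with letters chosen after the sequences had been seen. It occurred in 7 of the 8 promoters (all but Apcs) and in 9.56% of 32851 promoters. A STAT motif (TTCNNNGAA) occurred in 1 of 8, Apcs, against 7.02% of promoters. A looser NF-kB motif (GGG and CC with 5 free bases between) occurred in 3 of 8, Saa1, Saa2 and Saa4, and in 45.8% of promoters. The 8 promoters are not independent: those of Saa1 and Saa2 were 94.8% identical and held the same C/EBP and NF-kB sites. A match describes the letters and not binding. The promoters of Saa1 (chr7:46742981-46743230, minus strand), Orm2 (chr4:63362199-63362448, plus strand) and Hpx (chr7:105600117-105600366, minus strand) are shown 5′ to 3′ as 1 example of each family, with the C/EBP match in capitals.
Saa1: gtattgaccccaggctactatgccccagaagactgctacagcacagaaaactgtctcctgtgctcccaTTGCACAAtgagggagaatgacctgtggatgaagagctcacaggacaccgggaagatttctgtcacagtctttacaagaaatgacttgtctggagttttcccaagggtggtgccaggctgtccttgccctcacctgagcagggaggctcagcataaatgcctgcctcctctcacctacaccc
Orm2: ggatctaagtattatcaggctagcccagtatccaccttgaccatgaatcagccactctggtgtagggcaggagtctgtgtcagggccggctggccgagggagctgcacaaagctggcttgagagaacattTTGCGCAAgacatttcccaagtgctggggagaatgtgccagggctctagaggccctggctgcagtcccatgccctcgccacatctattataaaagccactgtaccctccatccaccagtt
Hpx: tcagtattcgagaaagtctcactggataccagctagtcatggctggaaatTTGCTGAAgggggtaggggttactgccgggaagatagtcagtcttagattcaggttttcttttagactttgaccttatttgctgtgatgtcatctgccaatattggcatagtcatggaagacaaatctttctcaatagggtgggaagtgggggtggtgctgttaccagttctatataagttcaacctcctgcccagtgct

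Library totals were 19.9 to 21.7 M (mega) counts in unselected liver, 23.5 to 41.4 M in polyA, 20.0 to 30.2 M in digestion and 23.4 to 39.2 M in 8 pull-down libraries. The pull-down library with slow ramp and long fragments stood apart at 1.13 M. Results that turn on it are given with and without it. Genes of rRNA, with Lars2, took 84.8 to 85.7% of the counts in unselected liver, which leaves few counts for the weakest genes there. The tissue labels were checked against markers. Summed hepatocyte markers lay between 57810 and 88920 normalised CPM in every liver library, and summed cardiomyocyte markers were at most 1.05. Normalised CPM are counts per M of the library total after TMM scaling.

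In the liver the family spanned several orders of magnitude. Per kb of exon, mean normalised CPM in polyA libraries was 2029 ± 69.4 (SD, n = 9) for Hpx, 828.8 ± 33.1 for Hp and 432 ± 18.9 for Orm1. Saa4 followed with 54.6 ± 1.61 and Apcs with 41.9 ± 6.38, and Saa1 reached 9.56 ± 0.62 on this scale. Orm2 (6.03 ± 0.71), Saa2 (4.501 ± 0.293) and Saa3 (1.54 ± 0.18) were lower, and Orm3 was at 0.189 ± 0.124. Neighbours in this order did not overlap within 1 SD. Hpx, Hp and Orm1 held the same first 3 places in all 5 liver groups. Saa4 was ahead of Apcs in 4 groups, and in pull-down libraries Apcs (40.5 ± 12.01) stood before Saa4 (33.3 ± 1.09). Without the 1.13 M library, where Apcs was low, these levels were 44.2 ± 4.92 and 33.4 ± 1.11 (n = 8), and the 2 genes did not overlap within 1 SD. The exon length of Saa1, Saa2 and Saa3 includes retained introns. Per kb of the main coding transcript, a length chosen after seeing the data, Saa1 stood at 38.9 ± 2.52 in polyA libraries and Saa2 (18.7 ± 1.22) and Saa3 (7.26 ± 0.84) passed Orm2.

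Orm3 was too weak to test. It had 0 to 14 counts in any liver library and did not pass the filter on low counts, so 9 of the 10 genes entered the tests. The annotated pseudogene Saa-ps had 0 counts in every library.

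PolyA libraries gave all 9 tested genes higher levels than unselected libraries. For Saa1 the unselected batch 1 libraries stood at 9.12, 9.69 and 11.1 normalised CPM and the polyA libraries ranged from 21.3 to 25.6 with a median of 23.3. The groups did not overlap. Saa1 rose by 1.17 ± 0.11 on the log2 scale (SE; adjusted p = 2.39e-10, edgeR quasi-likelihood test). Saa2 rose by 1.01 ± 0.21, from 2.68, 6.45 and 7.31 to a range of 10.8 to 12.9 with a median of 11.03. Its 3 unselected values spread widely, on 13 to 35 counts each. Saa3, known for its expression in fat and macrophages, had the largest log2 change of the 9 at 1.45 ± 0.27, from 1.25, 1.44 and 1.56 to 3.22 to 4.69 (median 3.998). Saa4, the constitutive member, rose by 0.46 ± 0.05, from 79.2, 82.9 and 83.7 to 107 to 117 (median 116).

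The other genes moved the same way in polyA libraries. Orm1 went from 188, 191 and 197 normalised CPM to 313 to 355 (median 332), a log2 change of 0.78 ± 0.07. Orm2 rose by 0.85 ± 0.23. Hp went from 779, 794 and 794 to 1256 to 1413 (median 1320), a log2 change of 0.71 ± 0.06. Hpx, with 2030, 2046 and 2047 before and 2899 to 3204 after (median 3042), rose by 0.53 ± 0.06, and its groups were far apart. Apcs rose by 0.50 ± 0.17 from 26.9, 27.2 and 30.1 to 33.7 to 49.1 (median 39.3). The count of 9 higher among 9 stands beside 25.6% of 15422 genes called higher and 50.4% called in either direction. Genes with short main coding transcripts were called higher more often: 311 of 579 under 800 bases and 1157 of 2115 from 800 to 1600. The median log2 change of the 9 was 0.78, against 0.04 over all genes tested. The count was 9 with any of the 3 unselected batch 1 libraries left out, and 8 with library totals that leave out rRNA genes, where Apcs missed the threshold (adjusted p = 0.0543).

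**Figure D1:**
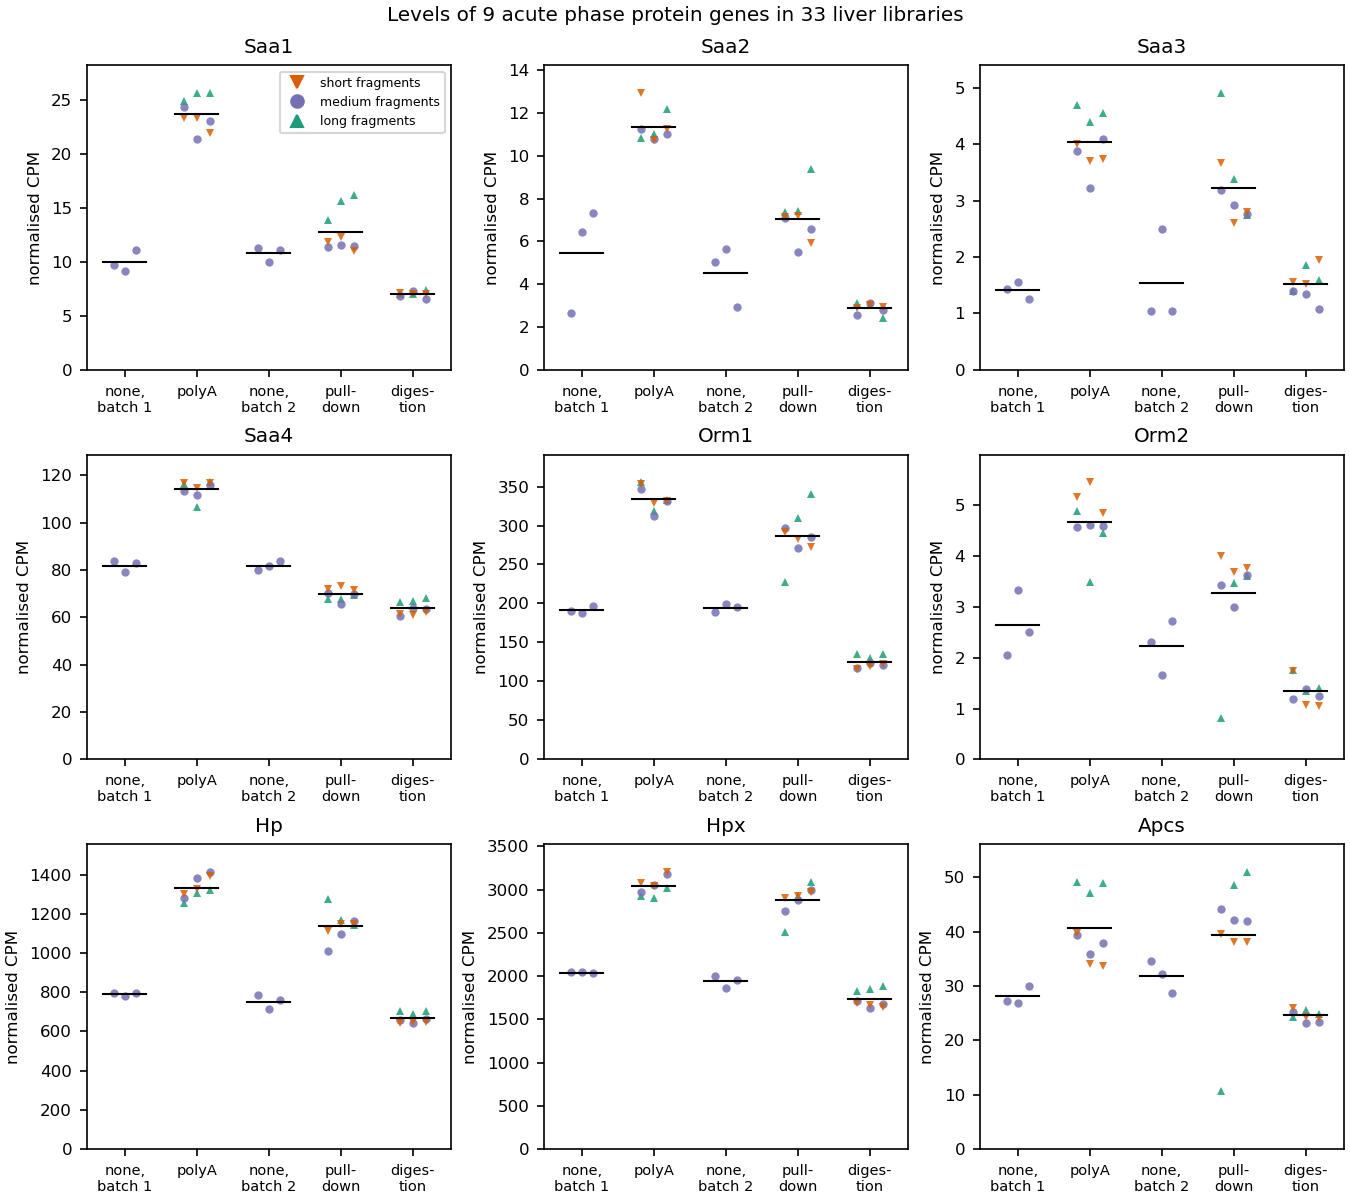
Normalised CPM (vertical axes, from 0) of 9 acute phase protein genes in 33 liver libraries, with 1 point per library, shapes for fragment length, slow to fast ramp from left to right within a selected group, and a bar at the group mean; unselected libraries are marked none. Saa1 stands at 21.3 to 25.6 in polyA libraries and at 6.53 to 7.42 in digestion libraries, and the low pull-down points of Orm2 and Apcs belong to the 1.13 M library.

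Pull-down libraries raised 6 of the 9 and lowered 1. Orm1 went from 189, 195 and 199 normalised CPM in the unselected batch 2 libraries to 228 to 341 (median 285), a log2 rise of 0.55 ± 0.07 (adjusted p = 7.34e-07, edgeR). Hp rose by 0.56 ± 0.06, from 714, 758 and 783 to 1009 to 1273 (median 1145). Hpx rose by 0.53 ± 0.06, from 1858, 1956 and 2006 to 2511 to 3084 (median 2928). These abundant genes did not overlap between the groups. Saa4 fell by 0.25 on the log2 scale (SE 0.05), from 80.2, 81.5 and 83.8 to 65.9 to 73.1 (median 69.7), with no overlap. It was the 1 member with called changes in opposite directions under polyA selection and pull-down. Saa3 rose by 0.94 ± 0.28 (adjusted p = 0.00818), Orm2 by 0.70 ± 0.25 (adjusted p = 0.0342) and Saa2 by 0.59 ± 0.23 (adjusted p = 0.0440). These 3 calls rest on 5 to 27 counts in each unselected library. They were lost without unselected batch 2 replicate 1, at log2 changes of 0.74, 0.72 and 0.68 (adjusted p of 0.0851, 0.0845 and 0.0707). The call of Orm2 was lost without replicate 2 (0.201), and those of Saa3 (0.0876) and Saa2 (0.321) without replicate 3. With any 1 of the 3 left out, Saa3 rose by 0.74 to 1.5, Orm2 by 0.53 to 0.87 and Saa2 by 0.36 to 0.78. The calls of Saa2 and Orm2 were also lost with DESeq2 size factors (0.0880 and 0.0603) and with library totals that leave out rRNA genes (0.178 and 0.138).

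Saa1 and Apcs did not pass in pull-down libraries. Saa1 stood at 10.0, 11.1 and 11.3 normalised CPM without selection and at 10.98 to 16.1 (median 11.8) with pull-down, and the groups overlapped. Its log2 difference was 0.16 (95% interval -0.06 to 0.38; adjusted p = 0.311, edgeR). With the copies Saa1 and Saa2 counted together the sum rose by 0.30 ± 0.12 (adjusted p = 0.0487, edgeR). Apcs differed by 0.39 ± 0.16 (adjusted p = 0.0667), and without the 1.13 M library, where it stood at 10.6 normalised CPM against 38.0 to 51.0 in the other 8, it rose by 0.45 (adjusted p = 0.000288). Of all genes tested, 17.5% were called higher and 15.3% lower, and the median log2 change was 0.06 against 0.55 for the 9.

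Digestion libraries went the other way, with 5 of 9 genes called lower and none higher (7.66% and 7.06% of all genes were called lower and higher). Saa1 ranged from 6.53 to 7.42 normalised CPM (median 7.03), below all 3 unselected values. It fell by 0.70 on the log2 scale (SE 0.12; adjusted p = 6.07e-05, edgeR). Orm1 fell by 0.67 (SE 0.07), to 115 to 135 (median 122). Saa4 fell by 0.38 (SE 0.05), to 60.5 to 68.3 (median 63.7). These 3 genes did not overlap with the unselected libraries. Hp fell by 0.22 (SE 0.05), to 641 to 704, below the unselected values. Hpx fell by 0.21 (SE 0.06), to 1636 to 1882, and its highest digestion library stood above its lowest unselected one. The calls of Hp and Hpx were lost without unselected batch 2 replicate 1 (adjusted p of 0.0525 and 0.0869), and that of Hpx without replicate 3 (0.0562). Both were also lost with library totals that leave out rRNA genes (0.185 and 0.195).

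The 4 genes that did not pass in digestion libraries also had negative differences. They were -0.69 ± 0.25 for Saa2 (adjusted p = 0.0540, edgeR), -0.69 ± 0.28 for Orm2 (0.103), -0.39 ± 0.16 for Apcs (0.109) and -0.07 ± 0.30 for Saa3 (0.931). Apcs was called, at -0.38 (adjusted p = 0.00466), when the 1.13 M pull-down library was left out of the fit. Saa2 was called, at -0.93 (adjusted p = 0.0245), without unselected batch 2 replicate 3. The sign of Saa3 is not firm, since it stood at 0.48 without replicate 2. The median over the 9 was -0.39 against 0.04 over all genes.

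**Figure D2:**
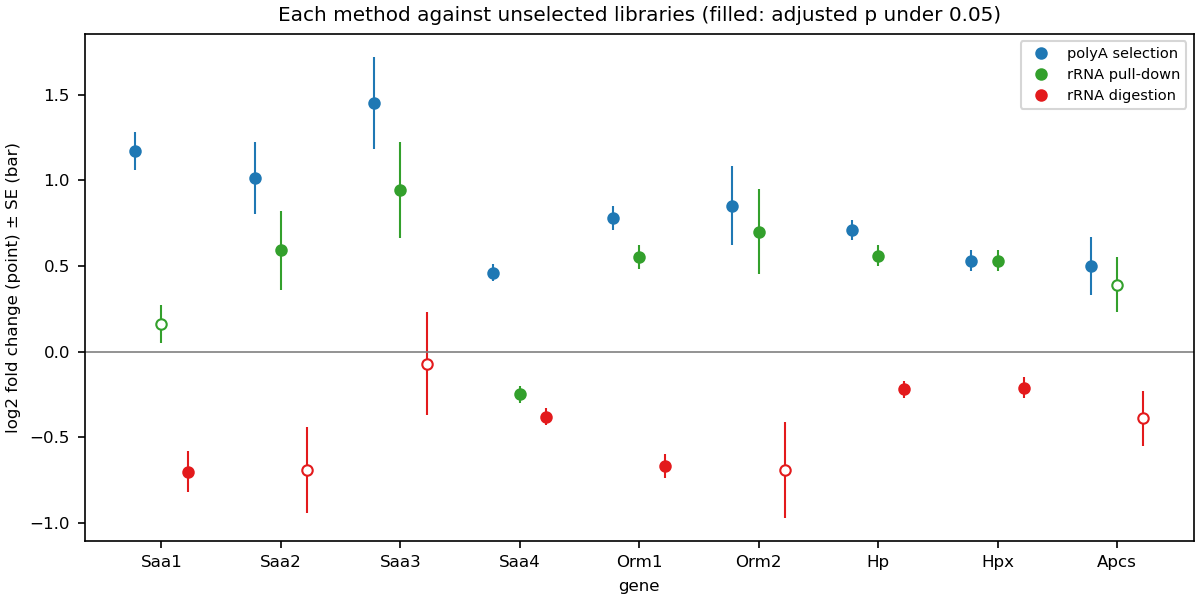
Log2 fold change against unselected libraries (points) with its SE (bars) for 9 genes and 3 methods; filled points have an adjusted p under 0.05. PolyA points lie between 0.46 and 1.45, and digestion points between -0.70 and -0.07.

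Set against each other, digestion gave lower levels than pull-down for all 9 genes, where 36% of all genes were lower and 70.7% were called in either direction. Orm2 differed most, by -1.39 ± 0.10, with 1.06 to 1.76 normalised CPM under digestion and 0.817 to 3.99 (median 3.60) under pull-down. The lowest pull-down value, from the 1.13 M library, lay below all digestion values, and the other 8 (3.00 to 3.99) lay above them. Saa2 differed by -1.29 ± 0.09, with 2.44 to 3.13 against 5.49 to 9.37 and no overlap. Orm1 differed by -1.21 ± 0.04 (adjusted p = 7.81e-21, edgeR), with 115 to 135 against 228 to 341. Those 3 were followed by Saa3 (-1.01), Saa1 (-0.86), Apcs (-0.78), Hp (-0.77) and Hpx (-0.74). Saa4 differed by -0.13 ± 0.03 (adjusted p = 9.18e-05). The sign of Saa4 is not firm: with library totals that leave out rRNA genes it was 0.13 higher under digestion, a scaling that moved the median of all genes from -0.01 to 0.26. The other 8 remained lower under that scaling.

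PolyA selection exceeded digestion for 9 of 9 (38.4% of all genes were higher, 42.2% lower and 80.6% either). The differences ran from 0.72 ± 0.08 for Apcs to 1.97 ± 0.08 for Saa2, and Saa1 stood 1.75 ± 0.05 higher. PolyA selection exceeded pull-down for 7 of 9 (36.4% of all genes were higher and 72.6% called in either direction). Saa1 led there with 0.90 ± 0.05, followed by Saa4 with 0.71 ± 0.03 and Saa2 with 0.69 ± 0.08. Orm1 (0.21) and Hp (0.23) differed less. Hpx did not pass at 0.08 (95% interval 0.01 to 0.15; adjusted p = 0.0538, edgeR), but was called with DESeq2 (0.06, 0.0287) and with library totals that leave out rRNA genes (0.09, 0.0281). Nor did Apcs pass, at -0.07 (interval -0.23 to 0.09; adjusted p = 0.481). Without the 1.13 M library Apcs was called lower in polyA libraries, at -0.11 (adjusted p = 0.0331). The batch of the 2 sets of unselected libraries gave 0 calls among the 9 genes and 0% of 15422 genes (edgeR). At an unadjusted p under 0.05 there were 848 genes and none of the 9, and DESeq2 called 18 genes and none of the 9.

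The shorter members differed more between digestion and pull-down. The 5 tested genes with a main coding transcript of 555 to 775 bases (Saa1, Saa2, Saa3, Orm1 and Orm2) had log2 differences from -1.39 to -0.86. Apcs (971 bases), Hp (1345) and Hpx (1499) lay from -0.78 to -0.74, and Saa4 (2094) at -0.13. Over the 12944 tested genes with an annotated main coding transcript (2478 had none matched), the median difference was -0.57 for 579 genes under 800 bases, -0.35 for 2115 genes up to 1600, -0.11 for 4925 genes up to 3200 and 0.15 for 5325 longer genes. Saa1 and Saa4 were inside the interquartile range of their length class. Saa3 lay at the lower quartile of its class (-1.01), Saa2, Orm1 and Orm2 below it, and Apcs, Hp and Hpx below that of theirs (-0.65). In polyA against unselected libraries the class medians ran from 0.65 in the shortest class to -0.32 in the longest. They ran from 0.44 to -0.10 for pull-down and from -0.18 to 0.06 for digestion, each against unselected libraries. The part of transcript length in the members' differences was not tested.

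**Figure D3:**
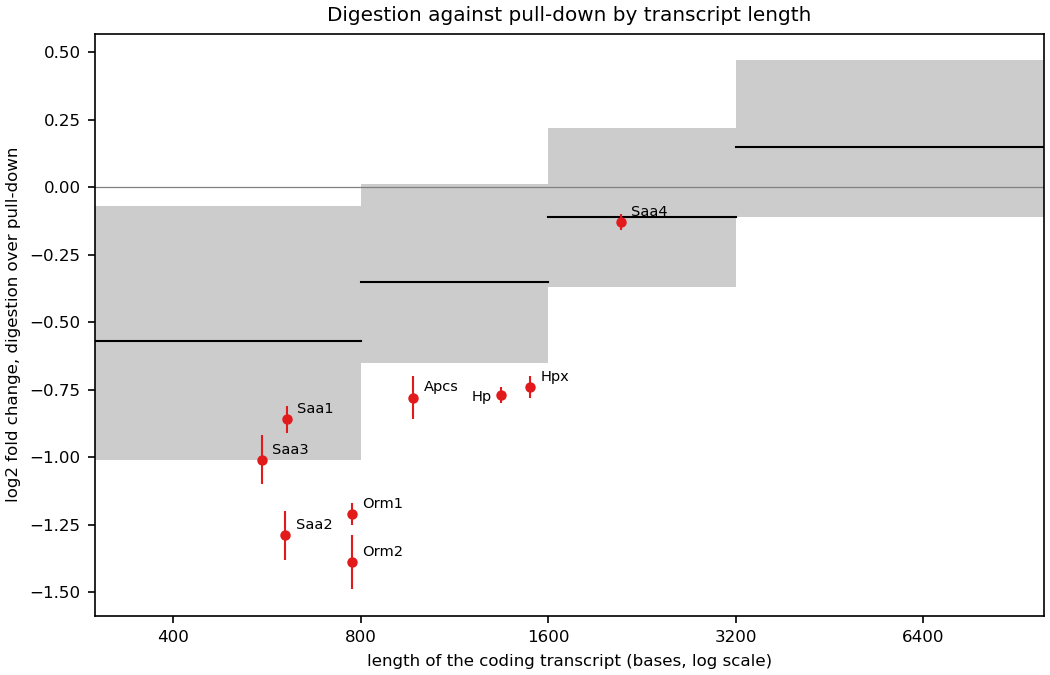
Log2 fold change of digestion over pull-down against the length of the main coding transcript (log axis); red points with SE bars are 9 acute phase protein genes, and black lines and grey boxes are the median and interquartile range over 12944 tested genes in 4 length classes. Saa1 and Saa4 lie within their grey boxes, and Orm2 lies lowest at -1.39.

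With long against short fragments, Saa1 and Apcs passed the test in both polyA and pull-down libraries, Orm2 in polyA, Saa2 in pull-down and Saa4 in digestion libraries. A test of the difference between the methods follows the values. In polyA libraries 3 of 9 passed (24.9% of all genes were higher and 24.9% lower with long fragments, 49.7% in all). Apcs stood at 39.8, 34.1 and 33.7 normalised CPM with short fragments (slow, medium and fast ramp) and at 49.1, 47.0 and 49.0 with long ones. The groups did not overlap, and it rose by 0.42 ± 0.10 (adjusted p = 0.00135, edgeR). Saa1 rose by 0.14 ± 0.05 (adjusted p = 0.0196), from 23.3, 23.3 and 21.9 to 24.9, 25.6 and 25.6. Orm2 fell by 0.29 on the log2 scale (SE 0.12; adjusted p = 0.0396), from 5.16, 5.44 and 4.85 to 4.88, 3.49 and 4.46, and these values overlapped. The call of Saa1 was lost without the polyA library of medium ramp and long fragments (adjusted p = 0.0714), fast ramp and long (0.0661) or fast ramp and short (0.112). That of Orm2 was lost without the library of medium ramp and long (-0.17, adjusted p = 0.280) or medium ramp and short fragments (-0.21, 0.194). Saa1 also missed the threshold with library totals that leave out rRNA genes (0.115) and when counted together with Saa2 (0.245), and Orm2 with DESeq2 size factors (0.0691). Hpx did not pass at -0.09 (0.165), and was called lower, also at -0.09, without the 1.13 M library (0.00312) and at -0.14 with library totals that leave out rRNA genes (0.0131). With those totals Saa4 was called lower as well (-0.10, 0.00977), which gives 1 higher and 3 lower.

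In pull-down libraries 3 of 9 were higher with long fragments and none lower (19.1% and 14.3% of all genes). Saa1 stood at 11.8, 12.3 and 10.98 normalised CPM with short fragments and at 13.9, 15.6 and 16.1 with long ones. It rose by 0.48 ± 0.06 (adjusted p = 6.22e-06, edgeR), by 0.44 without the 1.13 M library, and its groups did not overlap. Saa2 rose by 0.37 ± 0.12 (adjusted p = 0.0196), from 7.12, 7.19 and 5.91 to 7.36, 7.41 and 9.37. Its call was lost without the library of fast ramp with long (0.15, adjusted p = 0.515) or short fragments (0.26, 0.137). Apcs rose by 0.35 ± 0.11 (adjusted p = 0.0177), from 39.6, 38.0 and 38.0 to 10.6, 48.6 and 51.0. The 10.6 was the 1.13 M library, on 13 counts, and without it the rise was 0.39 (adjusted p = 5.53e-07). The Apcs call was lost in several fits that kept the 1.13 M library in. These were without medium ramp and long (0.28 on the log2 scale, adjusted p = 0.156) or fast ramp and long fragments (0.21, 0.279). Others were without medium ramp and short (0.34, 0.0583) or fast ramp and short fragments (0.34, 0.0579), and with DESeq2 (0.15, 0.513). Orm1 did not pass at 0.13 ± 0.08 (0.227), and rose by 0.22 (adjusted p = 0.000587) without the 1.13 M library.

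Digestion libraries had 1 of 9 called, Saa4 (4.33% of all genes were higher and 1.72% lower, 6.05% in all). It went from 61.4, 60.9 and 62.3 normalised CPM with short fragments to 66.5, 66.8 and 68.3 with long ones. That is a rise of 0.15 ± 0.04 (adjusted p = 0.0126, edgeR) with no overlap. The call missed the threshold without the library of medium ramp and long fragments (0.14, adjusted p = 0.0511). It also did so without fast ramp and long (0.15, 0.0517) or slow ramp and short fragments (0.15, 0.0572). Hpx was at 0.17 ± 0.05 (0.0606), Orm1 at 0.19 ± 0.08 (0.205) and Hp at 0.13 ± 0.05 (0.143). With the 1.13 M library left out of the shared fit these 3 rose by 0.17, 0.18 and 0.12 (adjusted p of 8.80e-05, 0.00702 and 0.0105).

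The effect of fragment length differed between the methods for 3 of 9 genes by the interaction test (31% of all genes). They were Saa1 (adjusted p = 0.00161, edgeR), Saa4 (0.00595) and Hpx (0.0260). Saa1 had its largest length effect under pull-down (0.48) and its smallest under digestion (0.04). Saa4 was at -0.05 under polyA selection, -0.04 under pull-down and 0.15 under digestion. Hpx was at -0.09, -0.01 and 0.17 in the same order. Without the 1.13 M library 6 of 9 passed, with Orm1 (0.00379), Hp (0.00334) and Apcs (2.27e-05) added.

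**Figure D4:**
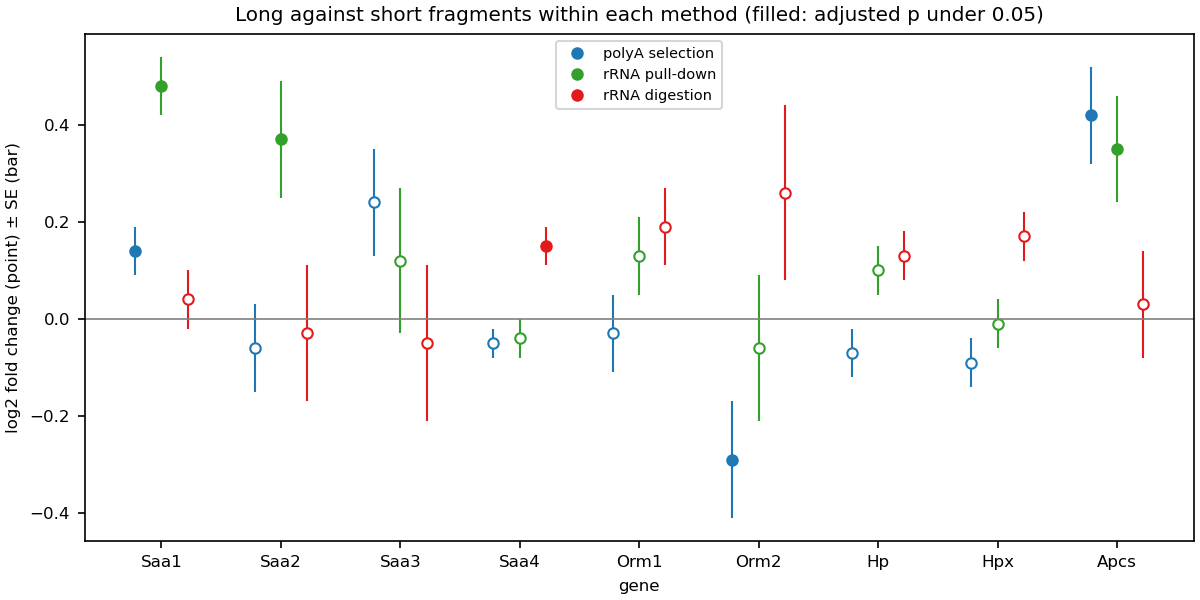
Log2 fold change of long over short fragments (points) with its SE (bars) for 9 genes within each method; filled points have an adjusted p under 0.05. Saa1 lies at 0.48 in pull-down and 0.04 in digestion libraries, and Apcs at 0.42 and 0.35 in polyA and pull-down libraries.

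The PCR ramp moved none of the 9 between slow and fast (edgeR called 0.0712% of all genes, or 11 genes, with 0.013% higher and 0.0583% lower). The differences lay between -0.09 and 0.07 on the log2 scale. At an unadjusted p under 0.05 there were 1232 genes, among them 1 member, Hpx. Its difference was 0.07 (95% interval 0.01 to 0.13), with an edgeR p of 0.0411 and an adjusted p of 0.603. DESeq2 called 49 genes and none of the 6 members to which it gave an adjusted p.

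The division of counts between Saa1 and Saa2 depended on the method. Of their summed counts Saa1 took 70.9% ± 1.93 (SD, n = 9) after digestion, 67.6% ± 1.81 after polyA selection and 64.5% ± 2.21 after pull-down. Between libraries matched for ramp and length, the share was 6.47 percentage points higher in digestion than in pull-down, in 9 of 9 pairs (two-sided exact sign-flip test p = 0.00391, the smallest this design allows; adjusted over 12 tests 0.0234). PolyA exceeded pull-down by 3.18 points, and in 8 of 9 pairs (exact test, p = 0.0117 and adjusted 0.0281), and was 3.3 points below digestion, with 1 of 9 pairs the other way (exact p = 0.0117, adjusted 0.0281). The polyA and pull-down difference missed the threshold without the pair of the 1.13 M library (adjusted p = 0.0563). Unselected libraries gave 58.6, 60.2 and 78.3% in batch 1 and 64.0, 69.2 and 79.1% in batch 2. Saa2 had 13 to 35 counts in each of them. No method differed from them after adjustment, and pull-down came nearest at 6.33 points below (exact permutation p = 0.0273, adjusted 0.0545). Single unselected libraries decide this: the difference of pull-down was -9.72 points without batch 2 replicate 2, and that of polyA 8.23 points without batch 1 replicate 1 (adjusted exact p = 0.0364 in both).

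Orm1 took nearly all the counts of its family. Its share was 98.6% ± 0.163 (SD, n = 9) after polyA selection, 98.9% ± 0.195 after digestion and 98.9% ± 0.316 after pull-down (98.8% ± 0.124 without the 1.13 M library). PolyA was below digestion by 0.306 points in 9 of 9 pairs (exact sign-flip p = 0.00391, adjusted 0.0234) and was the lower in 8 of 9 against pull-down, by 0.277 points (exact p = 0.00781, adjusted 0.0281). Digestion was the higher in 7 of 9 pairs against pull-down, and the mean difference was 0.0295 points with an SD of 0.422 between pairs (exact p = 0.875). The 1.13 M library, with 1 count of Orm2, had a share of 99.64%. Without its pair digestion was 0.157 points higher than pull-down (SD 0.193, 7 of 8 pairs; adjusted exact p = 0.121) and polyA 0.180 points lower (7 of 8 pairs; adjusted exact p = 0.0469). Unselected libraries ranged from 97.9 to 99.0%, and none of the 3 methods differed from them (adjusted exact permutation p of 0.779 or more).

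**Figure D5:**
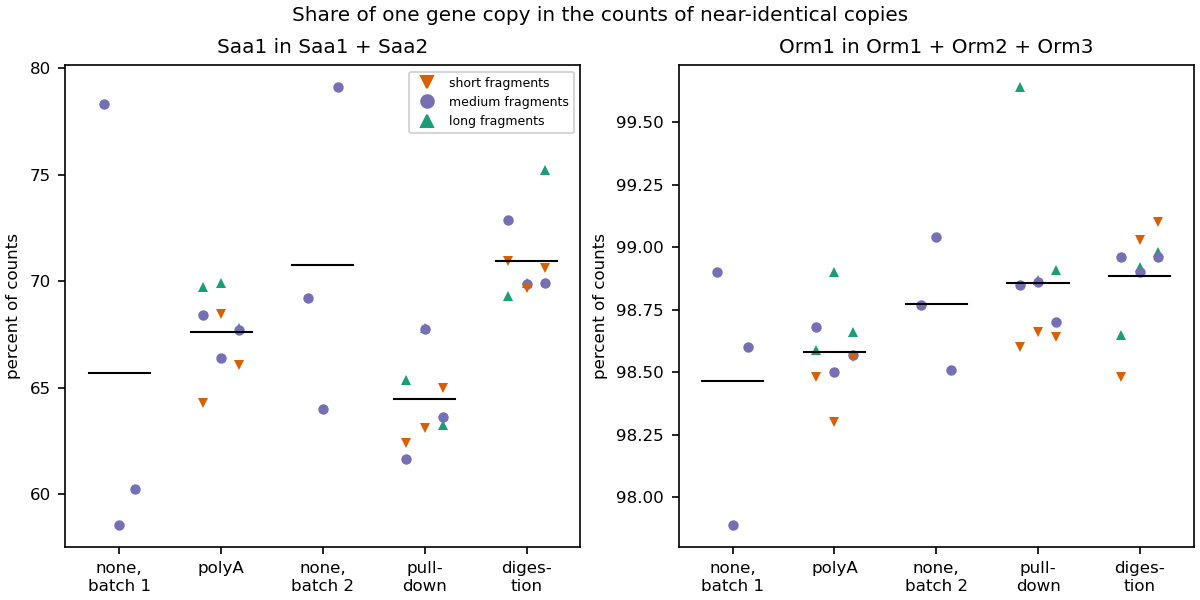
Percent of counts assigned to Saa1 among Saa1 and Saa2 (left) and to Orm1 among the 3 orosomucoid genes (right), with 1 point per liver library, shapes for fragment length and a bar at the group mean; the vertical axes do not start at 0. The Saa1 share is 6.47 points higher in digestion than in matched pull-down libraries, and the unselected points are the most scattered.

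In heart the genes were nearly absent. The heart library had 25 counts of Hp, 44 of Hpx, 5 of Saa4, 3 of Orm1 and 1 of Apcs, and 0 of Saa1, Saa2, Saa3, Orm2 and Orm3. The 3 unselected liver libraries of the same batch had 3499 to 3854 counts of Hp, 9198 to 9931 of Hpx, 356 to 406 of Saa4, 844 to 944 of Orm1 and 121 to 144 of Apcs. With 1 heart library there is no replicate check and no test. On scaled totals Orm1 was 462-fold lower in heart (95% exact binomial interval 158 to 2243), Hpx 335-fold (249.5 to 461), Hp 228-fold (154 to 352), Apcs 203-fold (36.2 to 8030) and Saa4 118-fold (50.6 to 365). These intervals cover counting error only. Against a floor of 3 counts in the heart library, Saa1 was at least 24.0-fold lower, Saa2 at least 13.2-fold, Orm2 at least 6.34-fold and Saa3 at least 3.41-fold. Orm3, with 0 to 3 counts in liver, allows no fold.

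In all, 8 of the 10 genes were at least 4-fold lower in heart, as were 13.6% of the 12828 genes compared. Those 8 are the members that passed the filter on low counts, which they did through liver, so the count is a description only. Fewer cells of a type and less RNA per cell cannot be told apart in such bulk tissue. Of the members with a heart count, the heart level was 0.845% of the liver level for Saa4, 0.494% for Apcs, 0.439% for Hp, 0.299% for Hpx and 0.216% for Orm1. Summed hepatocyte markers stood at 0.347% of liver and negative acute phase proteins at 0.395%. These lists share 4 genes, among them Alb, the most abundant. Their part in the heart counts was not tested. Summed cardiomyocyte markers were at 8251 normalised CPM in heart and 0.121 in liver. Comparisons with heart used TMM scaling over the heart library and the 3 unselected liver libraries of batch 1 alone. This heart scale is not that of the other levels: mean Hpx in those liver libraries was 504 on it and 2041 elsewhere.

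Of all genes tested, 25.6% were higher and 24.8% lower in polyA libraries, 17.5% and 15.3% in pull-down, and 7.06% and 7.66% in digestion. These shares stand beside each count of both lists below. Of 20 other positive acute phase proteins, 15 were higher and 0 lower in polyA than in unselected libraries, with a median of 0.43. Lcn2, an iron-siderophore binder, was highest at 1.02. In pull-down libraries 11 were higher and 3 lower, the lowest being Crp, a pentraxin, at -0.37. Digestion gave 1 higher (Lbp, 0.20) and 2 lower, with Fgl1 lowest at -0.92. Of 10 negative acute phase proteins, which decline in inflammation, 9 were higher in polyA libraries (median 0.59; Apoa1 highest at 0.89) and 8 in pull-down, while Rbp4, the retinol carrier, was lower there at -1.23. With digestion 1 was higher (Ttr, 0.29) and 1 lower (Trf, -0.25). The digestion counts of both lists were near the shares of all genes. The medians of the positive and the negative list were 0.28 and 0.44 under pull-down, and under digestion 17 of 20 and 8 of 10 genes were not called.

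A list of 24 genes that signal to the acute phase genes was described in the same way. In polyA libraries 6 were higher (Myd88 highest, 0.50) and 10 lower (Osmr, the oncostatin M receptor, lowest at -1.69), with a median of -0.09, where 25.6% of all genes were higher and 24.8% lower. Pull-down gave 2 higher (Cebpa highest, 0.42) and 6 lower (Il6ra lowest, -1.23), against 17.5% and 15.3% of all genes. Digestion gave 7 higher and 0 lower, against 7.06% and 7.66% of all genes, with Cebpb, which encodes a transcription factor of the acute phase, highest at 1.63. No difference between these lists and the 10 genes was tested. Among 12 genes of receptors and clearance, 5 were higher and 5 lower in polyA libraries, from Ftl1 (0.83) to Tlr4 (-2.36), 2 higher and 2 lower in pull-down, and 0 higher and 1 lower (Cd163, the receptor of haptoglobin with haemoglobin, -0.77) in digestion. In heart the signalling list stood at 35.5% of its liver level and the clearance list at 29.3%, against 1.60% for the other positive acute phase proteins. Cd36, a fatty acid transporter of heart muscle, gave 201.2 of the 446 normalised CPM of the clearance list in heart, on the heart scale. Without it, a choice made after seeing the values, the list stood at 16.2%.

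Markers of other cells were counted in the same way, beside the shares of all genes. Those were 25.6% higher and 24.8% lower in polyA, 17.5% and 15.3% in pull-down, and 7.06% and 7.66% in digestion libraries. Of 10 Kupffer cell and macrophage markers, 9 were higher in pull-down and 5 lower in digestion libraries, and their summed level was 268 to 358 normalised CPM in pull-down against 148 to 161.5 in digestion and 178 to 189 in unselected batch 2 libraries. In polyA libraries 1 of the 10 was higher and 6 were lower. Of 6 endothelial markers 5 were lower in polyA, 6 higher in pull-down and 2 lower in digestion libraries, and their summed level was 82.8 to 86.1, 236 to 289 and 159 to 171 in that order, against 183 to 210 in unselected libraries. Of 10 hepatocyte markers 8 were higher and 2 lower in polyA libraries, 7 higher in pull-down, and 1 higher and 1 lower in digestion. The digestion counts of this list were near the shares of all genes. Of 8 neutrophil markers 2 were strong enough to test, with a summed level of at most 1.07 in any liver library, and S100a9 was called higher in polyA libraries (adjusted p = 0.0185, edgeR). Of 6 adipocyte markers 4 were at 0 in both unselected groups and 2 were tested, of which Cidec, a lipid droplet protein, was higher in polyA (0.96, adjusted p = 0.0167) and pull-down libraries (0.93, adjusted p = 0.0372). Of 5 red cell markers 4 were higher in polyA (median 0.36), 3 higher in pull-down (median 0.52) and 4 lower in digestion libraries (median -5.65). Their summed level was 410 to 518, 401 to 523 and 73.2 to 78.3 in that order, against 280 to 297 in unselected batch 2 and 322 to 333 in batch 1 libraries. All markers came from the same RNA, and their part in the members' differences was not tested.

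Across the 33 liver libraries, Saa1 correlated with Saa2 at a Pearson r of 0.93 on log2 normalised CPM, Hp with Hpx at 0.97, Orm1 with Hpx at 0.97 and Orm1 with Hp at 0.95. Without the 1.13 M library these 4 values were 0.93, 0.98, 0.97 and 0.96. The lowest was Saa3 with Apcs at 0.44, which was 0.80 without that library, where Saa3 was high and Apcs low. The lowest pair was then Saa4 with Apcs, at 0.48 (0.45 with it). The libraries share 1 RNA source and fall into groups by method, so these values describe how the methods move genes together. Among 15422 genes the patterns most like Saa1 were those of Mien1 (r = 0.984), Anapc13 (0.979) and Etfb (0.976). For Hp they were F10 (0.994), Pemt (0.993) and Park7 (0.991), and for Orm1 Psmb7 (0.993), Rpl22 (0.992) and Mdh1 (0.991). Without the 1.13 M library the same 3 genes led for Saa1 and Orm1, and Akr1a1 (0.993) took the place of Park7 for Hp.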

How the data were processed

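RNA-seq was measured in 34 libraries. The authors deposited expected counts per gene. The submitters' processing notes name Salmon 1.9.0, UMI-tools 1.1.1, R 4.4.0 and GRCm38, and how UMIs were used, the transcript set and bias options are not given in the sources used here. Of 51368 gene identifiers, 50820 matched GENCODE M21, which gave symbols, positions and transcripts. Expected counts were rounded and tested with edgeR 4.0.16 (R 4.3.3, limma 3.58.1): quasi-likelihood F-test, TMM, filterByExpr (minimum count 10), Benjamini-Hochberg adjustment over all genes tested, threshold 0.05. Method and batch contrasts used 33 liver libraries with ramp and length as covariates (15422 genes). Length, ramp and interaction used the 27 selected libraries (15442 genes). SE is the size of the log2 change divided by the square root of F. Group levels and their SD are in normalised CPM. DESeq2 1.42.0 and other settings were alternatives. The model code was run on simulated counts with the same spread for every gene. That run scored only polyA selection against unselected and long against short fragments in polyA libraries. It is no check on the other contrasts. Depth is given with the results, and weak genes are limited by it.

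Groups came from the labels. Heart, with 1 library, was compared by fold (threshold 4). Shares were tested exactly, adjusted over 12 tests. Members, gene lists and the rule for named genes (all 10 members, the highest and lowest called gene of a list, and the 3 most correlated genes of Saa1, Hp and Orm1) were chosen with earlier results of these data known. Replicate numbers of the unselected libraries did not pair them.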

Additional observations from a re-analysis of the deposited data

Results flagged for a closer look

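Among 36 sets of values within a group (9 genes, the 2 shares and library totals in each of the 3 selected groups), 7 held a library far from the others, where chance flags about 1 set in 20. Of these, 5 were the pull-down library with slow ramp and long fragments. Its total was 1.126 M counts against 23.38 to 39.19 M in the other 8. Its Apcs level was 10.62 normalised CPM (others 38 to 50.97), Orm2 0.8173 (others 3.002 to 3.99) and Saa3 4.904 (others 2.6 to 3.667), and the Orm1 share was 99.64% (others 98.6 to 98.91%). The Orm2 value there is 1 count. The other 2 were Saa2 in the pull-down library with fast ramp and long fragments, at 9.365 normalised CPM (others 5.491 to 7.412), and Orm2 in the polyA library with medium ramp and long fragments, at 3.485 (others 4.458 to 5.443).

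The effect of long against short fragments differed between the methods, by the interaction test of edgeR, for Saa1 (adjusted p = 0.00161), Saa4 (0.00595) and Hpx (0.026). That is 3 of 9, where 31% of all genes passed, and 6 of 9 without the 1.13 M library.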

How the results depend on the processing

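Of 1015 single-gene alternatives, 938 kept their side of the threshold (916 with the same sign, 22 with another sign and called in neither fit), 44 dropped below it, 32 passed it, and 1 reversed while called: Saa4 in digestion against pull-down, at 0.13 with library totals that leave out rRNA genes. The cause was not tested. Over the 9 genes, polyA selection against unselected gave 9 except for 8 with those totals, digestion against pull-down gave 9 lower except for 8 lower and 1 higher with those totals, and ramp and batch gave 0, under every alternative run on all 9 genes. Digestion against unselected gave 3 rather than 5 with totals that leave out rRNA genes and with no gene filter, 3 to 5 with an unselected library left out, 6 with DESeq2 size factors or without the 1.13 M library, and 7 with DESeq2 or only the 2 groups. PolyA selection against pull-down gave 8 higher rather than 7 with DESeq2 and with totals without rRNA genes, and 7 higher and 1 lower (Apcs) without the 1.13 M library. Pull-down against unselected gave 4 to 6 rather than 7 with one left out. It gave 4 higher and 1 lower with DESeq2, its size factors, totals without rRNA genes or only the 2 groups, and 7 higher and 1 lower with no gene filter or without the 1.13 M library. Long against short fragments gave, in polyA libraries, 1 with copies counted together, 3 higher and 3 lower with only the 9 libraries of the method, 1 higher and 1 lower with no gene filter, 2 higher and 0 lower with DESeq2 or its size factors, and 1 to 3 with a library left out. It gave 2 higher and 2 lower without the 1.13 M library, and 1 higher and 3 lower with totals that leave out rRNA genes, rather than 2 higher and 1 lower. In pull-down libraries it gave 1 with the 9 alone and 1 to 4 with one left out. In digestion libraries it gave 2 with no filter or DESeq2, 4 without the 1.13 M library or with the 9 alone, and 0 to 1 with one left out. The interaction gave 6 rather than 3 without the 1.13 M library.

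The Saa1 share of polyA over pull-down was 3.03 points (adjusted p = 0.0563) without that library. Leaving out 1 unselected library, polyA minus unselected ranged from -1.65 to 8.23 points and pull-down minus unselected from -9.72 to -2.16, each with 1 of 3 values called: without batch 1 replicate 1 and batch 2 replicate 2 (adjusted p = 0.0364 in both).

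Same-numbered unselected libraries had correlated deviations of -0.018, -0.034 and -0.042, so the numbers do not pair them. A replicate block over these 6 libraries called 0 of the 8 genes it tested (all but Saa3) for batch and 82 of 10958 genes tested, against 0 of 15422. For batch, the 2 groups alone gave 39 genes. For ramp, 11 genes became 70 without the 1.13 M library and 22 with no filter. All genes called for length went from 5146 to 877 (pull-down) and from 934 to 2728 (digestion) with the 9 libraries alone.

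Totals that leave out rRNA genes moved the median of all genes to -0.10 (polyA selection), -0.12 (pull-down) and 0.13 (digestion), each against unselected, and to -0.28 for polyA selection against digestion. The split of genes called higher and lower became 2800 and 4654 (from 3944 and 3825), 1282 and 3574 (from 2692 and 2360), 2143 and 837 (from 1089 and 1181) and 3941 and 8590 (from 5918 and 6510). For digestion against pull-down it became 8362 and 2976 (from 5347 and 5553), and for length 2358 and 2912 in pull-down (from 2942 and 2204), 3371 and 4508 in polyA (from 3844 and 3838) and 538 and 359 in digestion libraries (from 669 and 265). DESeq2 size factors gave 2054 and 2799 for pull-down and 703 and 1442 for digestion against unselected, and 545 and 342 for length in digestion libraries. Levels per kb and correlations without the 1.13 M library were chosen after seeing the data. Depth limits Saa2, Saa3 and Orm2, with 5 to 35 counts in each unselected library.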

Other observations

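Haemoglobin genes, whose protein haptoglobin binds, stood low in digestion libraries. The called red cell genes ran from -7.42 for Hba-a1 to -5.62 for Hbb-bt on the log2 scale against unselected libraries (edgeR adjusted p of 2.03e-17 and 2.36e-21). Fth1, the ferritin heavy chain, was the lowest of the receptor and clearance genes in pull-down libraries, at -1.21 (adjusted p = 1.74e-07).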
